A study of Bos taurus with 9 samples.

Results

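The mitochondrial ribosomal protein genes are nuclear genes for the proteins of the ribosome inside mitochondria. Here they were the genes whose symbol is MRPL or MRPS followed by a number and, in a few, a letter, which gave 78 of the 17162 genes of the expression table (49 MRPL and 29 MRPS). No measured value entered the symbol rule, though the set was chosen with earlier results of these data known. They were examined to ask whether nuclear genes of the mitochondrion follow the level of the transcripts made from mitochondrial DNA (mtDNA), which fell in the interferon-treated cells.

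The mitochondrial ribosome has a large and a small subunit, and all of its proteins are made in the cytosol and imported. Its rRNAs are transcribed from mtDNA, and it translates only the mtDNA-encoded subunits of the respiratory chain and of ATP synthase. Many of its proteins descend from bacterial ribosomal proteins, and others are found only in mitochondria. In the uterine lining, as in most tissues, mitochondrial translation is needed to keep up oxidative phosphorylation (OXPHOS).

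The RNA came from BEND, bovine endometrial cells of a wild-type genotype that the labels give as primary epithelial cells, in 9 libraries of poly(A)-selected RNA. CON cells received no hormone or interferon. GA cells were given 1 nM estradiol (E2) and 100 nM progesterone (P4) for 12 h. GB cells were given the same E2 and P4 for 12 h and then 100 ng/mL interferon tau (IFNT), the type I interferon by which the ruminant conceptus signals to the uterus, for 12 h. All cells grew in DMEM/F12 with serum and antibiotics. There were 3 libraries per group, described as biological replicates. When the cells of CON and of GA were collected is not given in the sources used here, so that treatment and time in culture cannot be told apart in the comparisons with GB. Nor is it given whether the replicates of a group came from different cows, and the p-values then measure only the spread between these cultures.

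Values are FPKM (fragments scaled to the length of the exons and to the mapped reads of the library), a level per length that lets genes be compared with each other. The file gives no read counts, and the FPKM of a library summed to between 1395622 and 1442723. Differences are log2 fold changes (log2FC) of FPKM + 0.5 from a single limma fit over the 9 libraries. The fit covered the 12578 genes whose mean reached an FPKM of 0.5. On this scale the change of low genes is understated. A gene was called higher or lower when its p, adjusted by the Benjamini-Hochberg method over all genes tested, was under 0.05. A stricter rule also asked for |log2FC| above 1. P-values come from limma, since for any 1 gene the smallest p of an exact, two-sided permutation test of 3 against 3 libraries is 0.1.

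The treatments could be read in the libraries. Of the interferon-stimulated genes listed, the 10 that were tested were all higher in GB by the stricter rule, against CON and against GA. That rule called 4.01% and 3.64% of all tested genes in either direction. Among them was ISG15, the ubiquitin-like protein, with 1.76, 4.74 and 7.01 FPKM in CON, 1.80, 6.46 and 4.49 in GA and 5616, 5536 and 5596 in GB. GREB1, an estrogen-responsive gene, had 0.09, 0.11 and 0.38 FPKM in CON, 2.23, 2.12 and 2.44 in GA and 2.51, 2.48 and 2.03 in GB. Of 6 steroid response genes tested, it was the only one called in GA vs. CON (log2FC 2.02, adjusted p = 0.00639), 16.7% against 0.453% of all tested genes. For 5 of the 6, all GA libraries lay above those of CON (83.3%, against 18.6% of all). The mRNAs of the epithelial markers were near 0 in these libraries. The study had checked the cultures by immunofluorescence for cytokeratin, a measure of protein that is not analysed here. The summed level of 8 epithelial marker genes, among them keratins, a cadherin and a claudin, was 0.92 to 2.01 FPKM per library, and none of the 8 reached a mean of 0.5. KRT18, which marks simple epithelia, had 0.25, 0.41 and 0.16 FPKM in CON, 0.48, 0.23 and 0.67 in GA and 0.16, 0.64 and 0.25 in GB. The 9 stromal fibroblast markers summed to 15233 to 17378 FPKM, led by vimentin (VIM) with 8658, 9570.1 and 9017 FPKM in CON, 8812, 8712 and 8752 in GA and 7773, 7777 and 7781 in GB. Their sum was lower in every GB library (15233 to 15346 FPKM) than in the other 6 (16786 to 17378 FPKM), and the part of this in the results below was not tested. The 5 endothelial markers summed to 1.57 to 3.44 FPKM and the 4 immune markers to 20.5 to 27.4 FPKM, most of it CD14. The cells are called BEND here without a cell type. In bulk RNA, fewer cells of a type and less RNA per cell cannot be told apart.

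CON2 stood apart from the other untreated libraries for these genes. It was the lowest of the CON libraries in 50 of the 78 (64.1%), against 47.2% of all tested genes. The summed level of the 78 genes was 11290, 10416 and 11654 FPKM in CON1, CON2 and CON3. Results against CON are therefore also given without CON2 where they rest on it.

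All 78 genes were above 0 in every library and all passed the filter on low values. Their median level over the 9 libraries was 110 FPKM, against 22.1 FPKM for all tested genes, and single genes ran from 22.4 FPKM to 479.3 FPKM, a 21.4-fold range. The proteins sit in the ribosome in fixed numbers, most of them as a single copy, and their mRNA levels were far from equal. The 5 most abundant mRNAs were MRPL53 (479 FPKM), MRPS14 (412 FPKM), MRPS6 (411 FPKM), MRPL41 (346 FPKM) and MRPL20 (337 FPKM). The 5 least abundant were MRPS9 (22.4 FPKM), MRPS35 (25.4 FPKM), MRPS31 (28.1 FPKM), MRPL1 (31.4 FPKM) and MRPS27 (33.0 FPKM). MRPS14, MRPS6, MRPL20, MRPS9 and MRPL1 have bacterial counterparts, and MRPL53, MRPL41, MRPS35, MRPS31 and MRPS27 do not, so that both ends of the range held both kinds. The median level was 110 FPKM for the 51 proteins of the large subunit and 99.3 FPKM for the 26 of the small subunit. MRPS36 was counted in neither, since it is now known as a part of the 2-oxoglutarate dehydrogenase complex.

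The order of the 78 genes by level was much the same in every library. Spearman's rho across these genes was 0.981 to 0.995 for the 9 pairs of libraries of the same group and 0.961 to 0.986 for the 27 pairs from different groups, as a description of genes that share a library. Within a group, the median SD of a gene on the log2 scale was 0.102, and 0.114 over all tested genes. MRPL36, a small protein of the large subunit, varied most (SD 0.307).

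In GB, the mRNAs of the mitochondrial ribosome stayed nearer to the untreated level as a group than the mtDNA-encoded mRNAs, all of which fell. The summed level of the 78 genes was 11120 ± 636 FPKM in CON, 11360.3 ± 34.4 FPKM in GA and 10562 ± 230.5 FPKM in GB (SD, n = 3). The 13 mtDNA-encoded genes summed to 26687, 24116 and 26895 FPKM in CON, 28189, 29034 and 29164 FPKM in GA and 5568, 5859 and 6079 FPKM in GB. The GB libraries lay far below all 6 others in the mtDNA sum, while in the sum of the ribosomal protein genes GB2 and GB3 lay above CON2. CON2 alone made this overlap: the GB sums of 10330, 10565 and 10791 FPKM were below CON1, CON3 and every GA library (11339 to 11400 FPKM). For each FPKM of mtDNA-encoded mRNA there was 0.429 ± 0.00551 FPKM of mitochondrial ribosomal protein mRNA in CON, 0.395 ± 0.00815 in GA and 1.81 ± 0.0416 in GB (SD, n = 3).

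**Figure D1:**
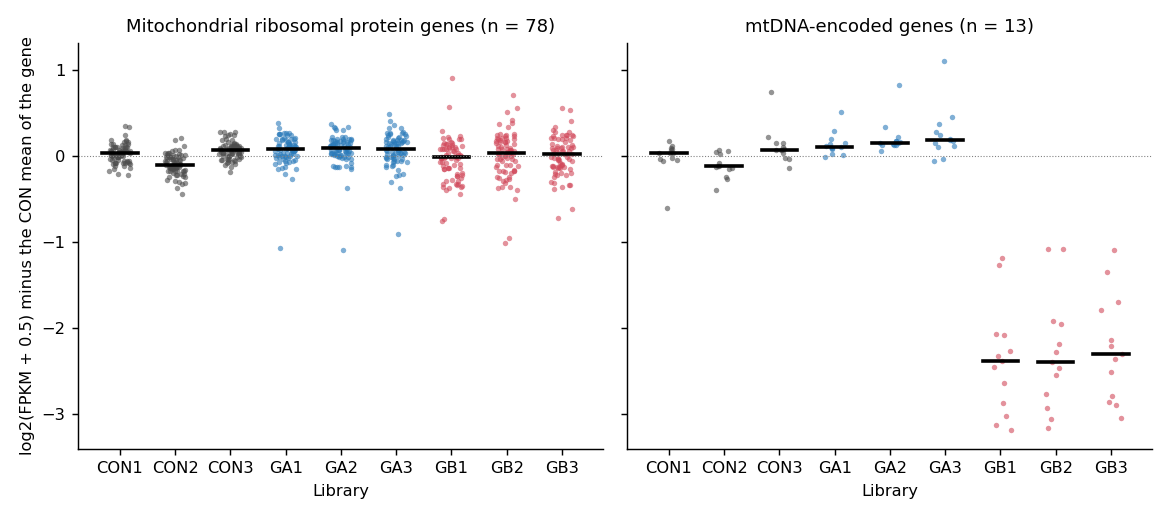
Log2(FPKM + 0.5) of each gene minus its CON mean, by library, for the 78 mitochondrial ribosomal protein genes (left) and the 13 mtDNA-encoded genes (right). Each point is a gene and each black line the median of a library: the left medians stay near 0 in all 9 libraries, and every point of the right panel lies below -1 in GB1, GB2 and GB3.

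The median log2FC of the 78 genes was 0.016 for GB vs. CON and -0.092 for GB vs. GA, beside -0.016 and -0.075 over all tested genes. The second was much smaller in size after median-of-ratios scaling, as was that of all genes, with the values given under the processing below. Without CON2 the first was -0.042, beside -0.033 over all genes. With the read GC content of each library as a covariate it was -0.143 (all genes -0.085), and with the replicate number as a block in the fit as well -0.158 (all genes -0.063), so that its sign rested on the fit. For the 13 mtDNA-encoded genes it was -2.36 and -2.45. All 13 were lower by the stricter rule in both comparisons. COX1, the catalytic subunit of cytochrome c oxidase, fell least, with 4250.1, 3813 and 4363 FPKM in CON, 4461, 4519 and 4617 in GA and 1821, 1952 and 1937 in GB (GB vs. CON log2FC -1.12, SE 0.05, adjusted p = 3.95e-07). ND4L, a membrane subunit of complex I, fell most, with 3119, 3067 and 2691 FPKM in CON, 3171, 3232 and 2898 in GA and 323, 331 and 356 in GB (GB vs. CON log2FC -3.13, SE 0.07, adjusted p = 1.05e-09). The other 11 (ND1, ND2, ND3, ND4, ND5, ND6, COX2, COX3, ATP6, ATP8 and CYTB) had a log2FC of -2.99 to -1.23 in GB vs. CON. By the stricter rule, limma called none of the 78 mitochondrial ribosomal protein genes in either comparison, where 4.01% and 3.64% of all tested genes were called; 34 and 30 of the 78 (43.6% and 38.5%) had an unadjusted p under 0.05, against 43.8% and 40% of all. With the GC covariate, alone or with the replicate block, MRPS10 passed the stricter rule in GB vs. CON. The 95% interval of all 78 genes lay above the log2FC of COX1, the smallest fall of an mtDNA-encoded gene, in either comparison. Both comparisons use the same GB libraries, and their values are given side by side.

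In GB vs. CON, 20 of the 78 genes (25.6%) were called, 5 higher and 15 lower, where 33.5% of all tested genes were called, 16.2% higher and 17.3% lower. The share was thus below that of all genes, and the changes were small: 61 of the 78 (78.2%) had |log2FC| under 0.25, against 59.6% of all tested genes, and 76 had a 95% interval within 1 of 0. Small changes were not particular to the 78. Of the lists described below, the share under 0.25 was 91.5% for cytosolic ribosomal protein genes, 87% for nuclear OXPHOS genes and 93.3% for mitochondrial translation factors. For the genes of ribosome assembly and rRNA modification it was 61.1%. The libraries of the groups did not overlap for 13 genes that were higher in GB and 17 that were lower, 38.5% of the 78 against 46.1% of all tested genes (22.2% higher and 23.9% lower). Leaving out a library can only raise such a count: without CON2 there were 26 lower (33.3%, against 30.6% of all), and without CON3 22 higher (28.2%, against 27.5%). The split of the called genes rested on single libraries. Without CON3 it was 10 higher and 9 lower (12.8% and 11.5%, against 15.7% and 13.6% of all tested genes). Without GB1 it was 7 and 7 (8.97% each, against 13.9% and 14%), and without CON2 it was 2 and 15 (2.56% and 19.2%, against 13.6% and 16.6%). Without CON1 and without GB2, 11 genes (14.1%) were called in each fit, against 29.5% and 26.4% of all. After median-of-ratios scaling the split was 11 and 14 (14.1% and 17.9%, against 18.1% and 16.7%). With the GC covariate 11 genes (14.1%) were called, 1 higher and 10 lower, where 11.7% of all genes were called, 4.48% higher and 7.23% lower. With the GC covariate and the replicate block together, 2 of the 78 (2.56%) were called, MRPS10 and MRPS21, both lower, against 4.09% of all, so that most calls against CON described below were lost in that fit. It estimates many terms from 9 libraries, and a lost call there need not mean a smaller change. With the GC covariate alone, calls over all genes fell against CON, to 0% in GA vs. CON, and were 32.4% in GB vs. GA, against 29% without it. Whether the covariate took up part of the difference between CON and the treated groups was not tested.

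The gene with the largest fall was MRPS10, a protein of the head of the small subunit with a bacterial counterpart. It had 141, 110.2 and 135 FPKM in CON, 125, 130.3 and 133 in GA and 76.7, 63.2 and 77.9 in GB. The GB libraries all lay below the lowest of the other 6, and those of GA lay within the range of CON. MRPS10 was lower against CON (log2FC -0.82, SE 0.10, adjusted p = 0.000333) and against GA (log2FC -0.83, SE 0.10, adjusted p = 0.000351), with a GB level 0.566 times that of CON. It was called in all 22 alternatives of both comparisons, with adjusted p of up to 0.047 against CON and 0.00236 against GA. Against CON its log2FC over the alternatives was -1.13 to -0.72.

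MRPL24, a protein of the large subunit with a bacterial counterpart, had 80.5, 87.7 and 87.4 FPKM in CON, 85.2, 78.0 and 85.2 in GA and 65.8, 66.4 and 68.8 in GB. Its GB libraries were close together and below all others (log2FC -0.34, SE 0.05, adjusted p = 0.00121 in GB vs. CON). The call was lost with the GC covariate (adjusted p = 0.0817) and with the GC covariate and replicate block together. Over its alternatives the log2FC was -0.40 to -0.18, with adjusted p of up to 0.468. MRPS21, of the small subunit, had 274, 258 and 238 FPKM in CON, 244, 261 and 198 in GA and 196, 212 and 167 in GB. It was lower in GB vs. CON (log2FC -0.43, SE 0.12, adjusted p = 0.0195) with no overlap, but GA3 lay between the GB libraries and the call was lost without CON1 (adjusted p = 0.0626) or GB3 (adjusted p = 0.0648), and with the GC covariate (adjusted p = 0.635), though not with the GC covariate and the replicate block together (adjusted p = 0.0429). MRPL52, a large-subunit protein found only in mitochondria, had 293, 233 and 296 FPKM in CON, 328, 297 and 311 in GA and 229, 213 and 216 in GB. It was lower in GB vs. CON (log2FC -0.32, SE 0.09, adjusted p = 0.022), a call lost on leaving out CON1, CON3, GB2 or GB3 and with the GC covariate and replicate block, with adjusted p of up to 0.074 over its alternatives.

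The other genes called lower in GB vs. CON were 7 of the large subunit (MRPL14, MRPL18, MRPL21, MRPL23, MRPL34, MRPL41 and MRPL55) and 4 of the small subunit (MRPS14, MRPS15, MRPS22 and MRPS34), with log2FC from -0.31 to -0.12. The GB and CON libraries did not overlap in any of these except MRPL14, where GB3 lay above CON2. MRPL36 had the second lowest log2FC of the 78 (-0.58) and was not called (adjusted p = 0.0565); GB3 stood at 394 FPKM, between the CON libraries, and GB1 and GB2 far below them. It was called in 4 of 22 alternatives, with adjusted p from 0.00131 to 0.375.

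MRPL32 had the largest rise. It is a large-subunit protein with a bacterial counterpart, which the m-AAA protease of the inner membrane cuts to its mature form before it joins the ribosome. It had 31.4, 32.2 and 35.9 FPKM in CON, 43.3, 41.7 and 46.7 in GA and 62.4, 54.7 and 49.2 in GB. The 3 groups did not overlap, with GA between CON and GB. MRPL32 was higher in GB than in CON (log2FC 0.73, SE 0.09, adjusted p = 0.000316) and than in GA (log2FC 0.33, SE 0.09, adjusted p = 0.0239), and not called in GA vs. CON (log2FC 0.40, SE 0.09, adjusted p = 0.0846). With the GC covariate and the replicate block together, the call against CON was lost (adjusted p = 0.133) at a log2FC of 0.88, and over all 22 alternatives the log2FC was 0.64 to 0.88. The call in GB vs. GA was lost on leaving out GA1, GA2, GB1 or GB2 and with the GC covariate and block, with adjusted p of up to 0.0801 over its alternatives.

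MRPL44, a large-subunit protein with a fold related to RNase III and no bacterial ribosomal counterpart, had 35.2, 31.1 and 36.2 FPKM in CON, 31.2, 33.4 and 36.7 in GA and 51.1, 50.4 and 49.6 in GB. All GB libraries lay well above the other 6, and those of CON and GA overlapped. It was higher in GB than in CON (log2FC 0.56, SE 0.07, adjusted p = 0.00049) or GA (log2FC 0.57, SE 0.07, adjusted p = 0.000486), and its log2FC in GA vs. CON was -0.02 (95% interval -0.18 to 0.15). With the GC covariate the call was lost against CON (adjusted p = 0.112) and kept against GA (adjusted p = 0.000207). Against CON it was also lost with the GC covariate and replicate block together. Over all alternatives the adjusted p was 0.000135 to 0.332 against CON and 6.89e-05 to 0.00307 against GA. The log2FC was 0.31 to 0.60 against CON and 0.52 to 0.65 against GA.

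3 further genes were called higher in GB vs. CON. MRPL49, of the large subunit, had 89.5, 83.0 and 112 FPKM in CON, 101, 110.0 and 125 in GA and 115, 134 and 114 in GB (log2FC 0.36, SE 0.12, adjusted p = 0.0442). MRPS26, of the small subunit, had a log2FC of 0.23 (adjusted p = 0.0399). MRPS12, the protein of the decoding centre on which ribosomal accuracy depends, had 147, 139 and 149.9 FPKM in CON, 154, 157 and 172 in GA and 157, 166 and 179 in GB (log2FC 0.20, SE 0.06, adjusted p = 0.0335). Their GB and CON libraries did not overlap, while GA overlapped GB for MRPL49 and MRPS12. The calls were near the threshold: MRPL49 was called in 11 and MRPS12 in 14 of 22 alternatives. Without CON2 none of the 3 was called (adjusted p = 0.133 for MRPL49 and 0.0899 for MRPS12), and the 2 higher calls were those of MRPL32 and MRPL44. MRPS35 and MRPL42 completed the 5 highest in GB vs. CON, with log2FC 0.30 (adjusted p = 0.0578) and 0.28 (adjusted p = 0.105), and were not called. With the GC content of the libraries as a covariate, the log2FC of MRPL49, MRPS12, MRPS35 and MRPL42 turned to below 0, none of them called.

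**Figure D2:**
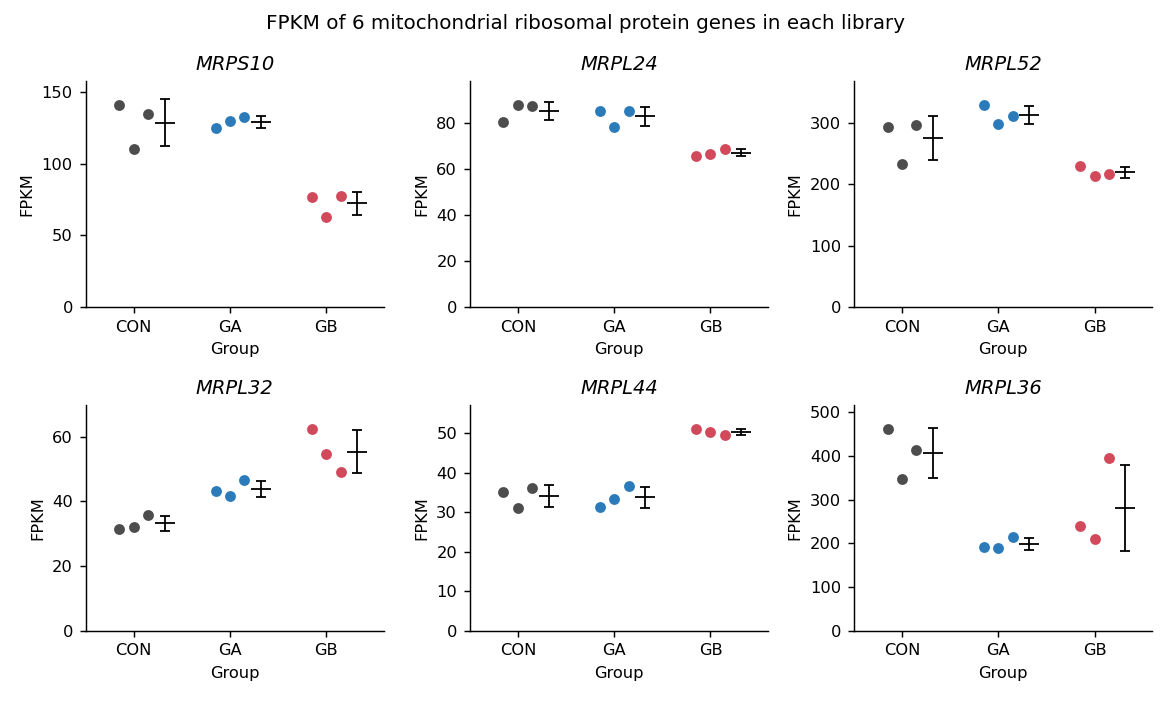
FPKM of 6 mitochondrial ribosomal protein genes in the 3 libraries of CON, GA and GB (points in the order 1 to 3, with the mean and SD in black beside them). MRPS10 and MRPL24 lie lowest and MRPL44 and MRPL32 highest in GB, and MRPL36 is at 189 to 215 FPKM in GA against 347 to 461 FPKM in CON.

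Setting IFNT-treated cells against cells with the hormones alone, GB vs. GA, 18 of the 78 genes (23.1%) were called, 3 higher and 15 lower, where 29% of all tested genes were called, 9.87% higher and 19.2% lower. Calls in the direction of lower thus prevailed among the 78 as among all genes. The libraries of the groups did not overlap for 6 genes higher in GB and 28 lower, 43.6% of the 78 against 46.8% of all tested genes (15.7% higher and 31% lower). There were 11 higher without GA3 (14.1%, against 20.1% of all) and 11 without GB1 (14.1%, against 19.5%). After median-of-ratios scaling the split was 6 higher and 10 lower (7.69% and 12.8%), where that of all genes moved too, to 14.3% higher and 12.7% lower. Without GA1 and without GA3, 12 genes (15.4%) were called in each fit, against 23.4% and 21.7% of all.

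MRPS10, MRPL52, MRPL18, MRPS15 and MRPL51 had the lowest log2FC in GB vs. GA. MRPL52 (log2FC -0.51, SE 0.09, adjusted p = 0.00242) had all 3 GB libraries below the lowest of the other 6. MRPL18, a large-subunit protein that binds 5S rRNA in bacteria, had 169, 154 and 182 FPKM in CON, 184, 184 and 186 in GA and 134, 139.8 and 135 in GB (log2FC -0.44, SE 0.06, adjusted p = 0.000469). MRPS15, of the small subunit, had 69.7, 59.8 and 61.9 FPKM in CON, 73.2, 65.3 and 71.4 in GA and 50.7, 56.4 and 50.5 in GB (log2FC -0.41, SE 0.07, adjusted p = 0.00308). MRPL51, a large-subunit protein without a bacterial counterpart, had 265, 191 and 264 FPKM in CON, 284, 256 and 298 in GA and 202, 229 and 205 in GB. Its GA and GB libraries did not overlap, CON2 lay below all 3 GB libraries, and its call (log2FC -0.40, SE 0.12, adjusted p = 0.0364) was lost in 7 of 22 alternatives, with adjusted p of up to 0.115.

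The other genes lower in GB vs. GA were MRPL2, MRPL21, MRPL23, MRPL24, MRPL34, MRPL58, MRPS14, MRPS16, MRPS22 and MRPS34, with log2FC from -0.33 to -0.21. MRPL58, a peptidyl-tRNA hydrolase built into the large subunit that frees stalled ribosomes, had 159, 144 and 171 FPKM in CON, 174, 173 and 197 in GA and 148, 144 and 157 in GB (log2FC -0.28, SE 0.07, adjusted p = 0.0212); its GB libraries overlapped CON and lay below GA. This call was lost without GA3, GB1 or GB2, with adjusted p of up to 0.0744 over the alternatives. On the other side, MRPS24, of the small subunit, had 113, 106 and 108 FPKM in CON, 90.2, 101 and 97.1 in GA and 104, 111 and 111 in GB and was higher in GB vs. GA (log2FC 0.18, SE 0.05, adjusted p = 0.0351). GA was the low group there, GB lay within the range of CON and GA together, and the call held in 16 of 22 alternatives. MRPL36 (0.44, adjusted p = 0.141) and MRPS27 (0.20, adjusted p = 0.0564) were the other 2 of the 5 highest and were not called.

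**Figure D3:**
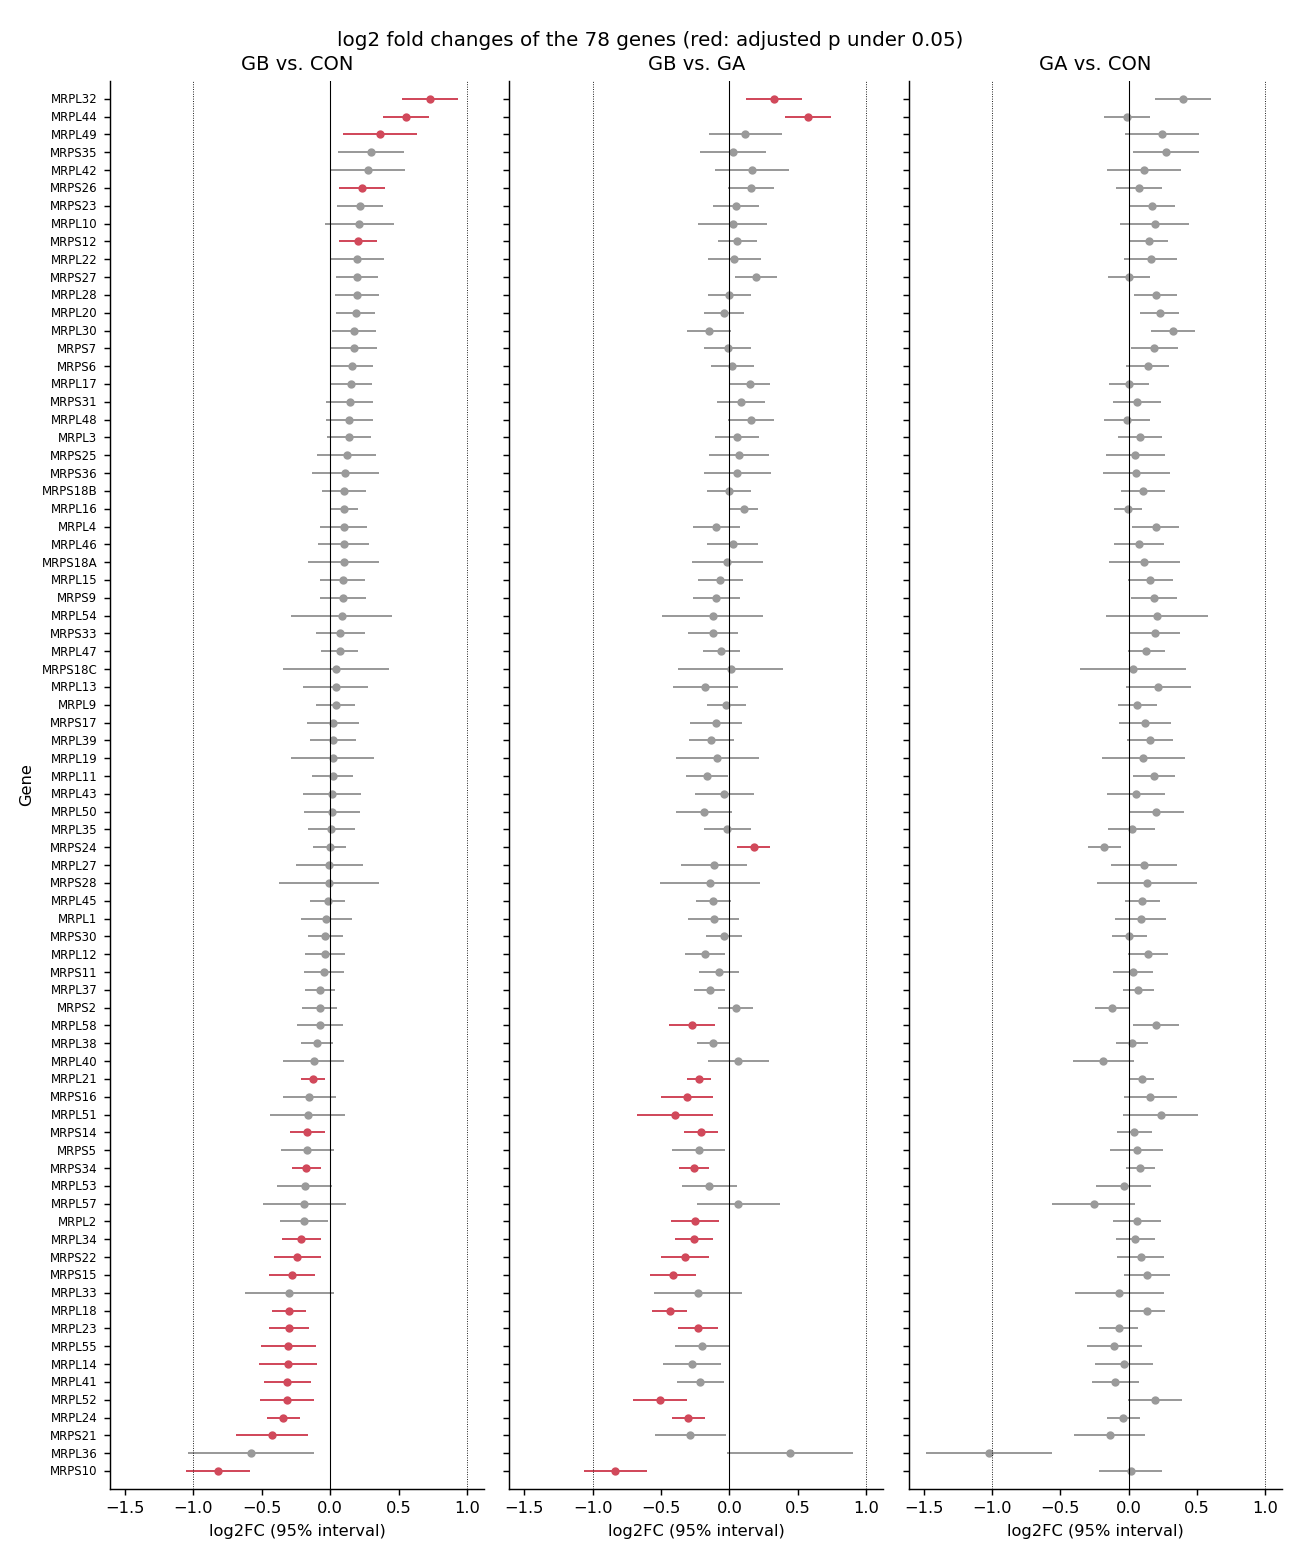
log2FC with its 95% interval for each of the 78 genes, ordered by GB vs. CON, with the 3 comparisons as panels. Red marks an adjusted p under 0.05: 20 genes in the first panel, 18 in the second and none in the third, and the only point beyond a dotted line at -1 or 1 is MRPL36 in GA vs. CON.

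With E2 and P4 alone, GA vs. CON, limma called none of the 78 genes, where 0.453% of all tested genes were called (0.246% higher and 0.207% lower), and by the stricter rule 0.0716%. An unadjusted p under 0.05 was found for 16 of the 78 (20.5%), against 19.3% of all tested genes. The median log2FC was 0.087, beside 0.061 over all tested genes, and 62 of the 78 (79.5%) were above 0 against 66% of all. Without CON2 the median was 0.049, beside 0.043 over all genes. The GC covariate turned it to -0.047 (all genes -0.012), and with the replicate block as well it was -0.070 (all genes 0.0067). Over both directions the libraries did not overlap for 25.6% of the 78 genes and 24.7% of all. This held for 17 genes higher in GA (21.8%, against 18.6% of all tested genes) and 3 lower (3.85%, against 6.13%). Without CON3 there were 34 higher (43.6%, against 29.7% of all), without CON2 8 lower (10.3%, against 10.4%) and without CON1 6 lower (7.69%, against 10.7%).

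The 3 genes whose GA libraries all lay below CON were MRPL36, MRPS24 and MRPS2. MRPL36, the large-subunit counterpart of a small zinc-binding bacterial protein, had 461, 347 and 412 FPKM in CON, 192, 189 and 215 in GA and 239, 209 and 394 in GB. The GA libraries lay far below all 3 CON libraries, with GB1 and GB2 near GA and GB3 near CON. The GA level was 0.492 times that of CON, and the adjusted p was above the threshold (log2FC -1.02, SE 0.20, adjusted p = 0.0677). It was called in 2 of 22 alternatives, the fit of only GA and CON (adjusted p = 0.0313) and without GB3 (adjusted p = 0.0126), and its adjusted p over all alternatives ran from 0.0126 to 0.614. The other lowest log2FC were those of MRPL57 (-0.25), MRPL40 (-0.19), MRPS24 (-0.18) and MRPS21 (-0.14), and the highest those of MRPL32, MRPL30 (0.32), MRPS35 (0.27), MRPL49 (0.24) and MRPL51 (0.23). None of these passed the test, and those of MRPS21, MRPS35, MRPL49 and MRPL51 changed sign with the GC covariate.

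Calls were found in both subunits and in both classes of descent. In GB vs. CON, 12 of the 51 large-subunit genes (23.5%) and 8 of the 26 small-subunit genes (30.8%) were called, with medians of 0.014 and 0.032, against 33.5% and a median of -0.016 for all tested genes. In GB vs. GA the counts were 11 (21.6%) and 7 (26.9%), with medians of -0.115 and -0.044, against 29% and -0.075 for all. Of the 43 genes with a bacterial counterpart, 12 (27.9%) were called in each of these comparisons, and of the 30 without one, 7 (23.3%) against CON and 6 (20%) against GA. The difference between these classes was not tested.

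Some members have roles of their own. MRPL12, the stalk protein that recruits translation factors, stood at 222 ± 13.3 FPKM in CON, 245 ± 15.8 FPKM in GA and 216 ± 11.5 FPKM in GB (SD, n = 3). MRPS7, which helps to organise the head of the small subunit, stood at 106 ± 8.86, 120.3 ± 8.82 and 119 ± 6.40 FPKM. The 3 paralogues of the bacterial protein S18, of which MRPS18A is in the large subunit and MRPS18B and MRPS18C are in the small subunit, differed in mean level. These means over the 9 libraries were 139 FPKM for MRPS18A, 110.3 FPKM for MRPS18B and 80.4 FPKM for MRPS18C. The ranges of MRPS18A and MRPS18B overlapped over the libraries, as did those of MRPS18B and MRPS18C, and those of MRPS18A and MRPS18C did not. None of these 5 genes was called in any comparison.

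5 proteins of the mitochondrial ribosome fall outside the MRPL and MRPS symbols. PTCD3, a pentatricopeptide repeat protein of the small subunit, had 24.5, 23.6 and 25.1 FPKM in CON, 28.0, 25.2 and 28.1 in GA and 31.9, 32.2 and 34.0 in GB, with GB above all other libraries. It was higher in GB than in CON (log2FC 0.41, SE 0.06, adjusted p = 0.000767) or GA (log2FC 0.27, SE 0.06, adjusted p = 0.00954). The other 4, DAP3, AURKAIP1 and CHCHD1 of the small subunit and GADD45GIP1 of the large subunit, were not called, with log2FC from -0.14 to 0.14 in GB vs. CON. The share called was thus 20% in both comparisons with GB, against 33.5% (CON) and 29% (GA) of all tested genes. CHCHD1 was the most abundant (191 FPKM) and PTCD3 the least (28.1 FPKM).

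Of 16 mitochondrial translation factors and partners of mitochondrial mRNA, 15 were tested. In GB vs. CON, 1 was higher and 1 lower (13.3%, against 33.5% of all tested genes), and in GB vs. GA 1 was lower (6.67%, against 29%). The medians were 0.046 and -0.036, beside -0.016 and -0.075 for all. LRPPRC, which binds and stabilises mtDNA-encoded mRNAs together with SLIRP, had 75.1, 75.1 and 77.0 FPKM in CON, 79.6, 79.6 and 81.0 in GA and 82.7, 83.6 and 88.2 in GB (log2FC 0.16, SE 0.04, adjusted p = 0.015). The release factor MTRF1 had 19.2, 19.2 and 19.1 FPKM in CON, 17.4, 22.0 and 22.2 in GA and 15.7, 16.2 and 14.9 in GB and was lower in GB than in CON (log2FC -0.29, SE 0.09, adjusted p = 0.0355) or GA (log2FC -0.38, SE 0.09, adjusted p = 0.0126). TUFM, the elongation factor that brings aminoacyl-tRNA to the ribosome, had 174, 178 and 181 FPKM in CON, 179.9, 171 and 186 in GA and 176, 166 and 172 in GB and was not called (95% interval of the log2FC -0.15 to 0.04 in GB vs. CON). SLIRP was the most abundant of the list (551 ± 42.6 FPKM in CON and 516 ± 38.1 FPKM in GB, SD, n = 3). The ribosome recycling factor MRRF was listed at 0 in 8 of the 9 libraries, which in FPKM can be a failed estimate and is not read as absence.

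Of 24 genes for assembly of the mitochondrial ribosome and modification of its rRNA, 18 were tested, and the median log2FC was 0.20 for GB against CON, 0.045 for GB against GA and 0.12 for GA against CON, beside -0.016, -0.075 and 0.061 over all tested genes. In GB vs. CON 4 were higher and 1 lower (27.8%, against 33.5% of all). In GB vs. GA 0 were higher and 1 lower (5.56%, against 29% of all), so that the higher calls named next held against CON only. GTPBP10, a GTPase of large-subunit assembly, had 17.4, 16.6 and 16.2 FPKM in CON, 18.5, 21.0 and 21.4 in GA and 20.4, 22.1 and 23.7 in GB (log2FC 0.39, SE 0.08, adjusted p = 0.00474). MPV17L2 (0.24, adjusted p = 0.0397), of large-subunit assembly, and METTL17 (0.26, adjusted p = 0.0269), of small-subunit assembly, were also higher. MALSU1, which keeps immature large subunits apart from small ones, was the only gene of these lists past the stricter rule (log2FC 1.02, SE 0.30, adjusted p = 0.0277), at the low level of 0.84, 0.28 and 0.27 FPKM in CON, 0.56, 0.80 and 0.60 in GA and 1.60, 0.82 and 1.90 in GB, where few reads can lie behind a value. YBEY, an endoribonuclease of the mitochondrial ribosome, had 82.8, 83.7 and 96.7 FPKM in CON, 100.3, 94.5 and 106 in GA and 74.0, 76.9 and 66.4 in GB and was lower in GB than in CON (log2FC -0.27, SE 0.08, adjusted p = 0.0256) or GA (log2FC -0.47, SE 0.08, adjusted p = 0.00215). ERAL1, MTG1, MTG2, MRM1, MRM3 and RBFA were under the filter and were not tested.

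Other nuclear genes of the respiratory chain and of the cytosolic ribosome were counted for comparison. Of the 77 nuclear OXPHOS subunit genes, 13 (16.9%) were called in GB vs. CON, 1 higher and 12 lower, with a median log2FC of -0.10, where 33.5% of all tested genes were called, 16.2% higher and 17.3% lower, with a median of -0.016. Against GA, 20 (26%) were called, 3 higher and 17 lower, with a median of -0.096, where it was 29% of all tested genes, 9.87% higher and 19.2% lower, with a median of -0.075. None passed the stricter rule, and 30 and 25 (39% and 32.5%) had an unadjusted p under 0.05 in limma, against 43.8% and 40% of all. NDUFS7, a complex I subunit, had a log2FC of -0.48 in GB vs. CON (adjusted p = 0.000549), and NDUFB10, of the same complex, 0.23 (adjusted p = 0.00291). Of 84 cytosolic ribosomal protein genes, 82 were tested. In GB vs. CON, 16 (19.5%) were called, 4 higher and 12 lower, with a median of -0.021. Against GA, 16 were called as well (19.5%), 1 higher and 15 lower, with a median of -0.033. Both shares were below those of all tested genes. RPL13 was lower (log2FC -0.30, adjusted p = 0.000156) and RPL22L1 higher (log2FC 0.66, adjusted p = 0.0098) in GB vs. CON.

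**Figure D4:**
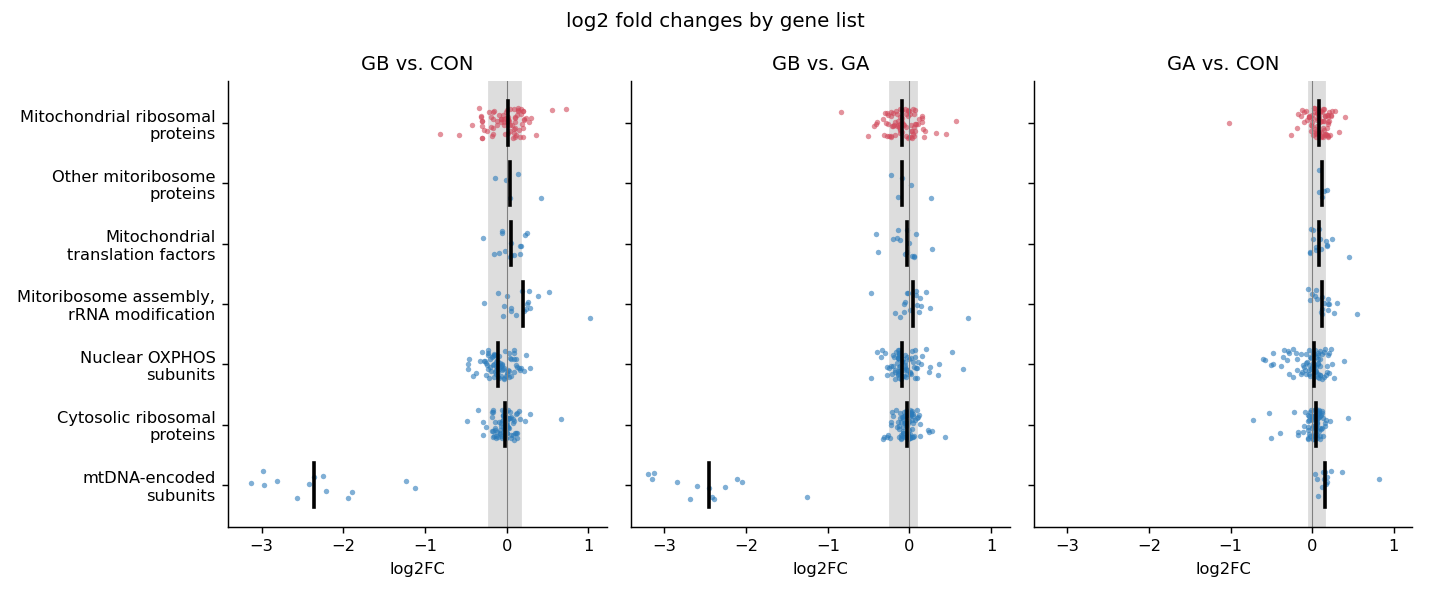
log2FC of each tested gene by list, with the 3 comparisons as panels. Points are genes (red for the 78 mitochondrial ribosomal protein genes), black lines the list medians and the grey band the middle 50% of all 12578 tested genes; the median of the mtDNA-encoded genes lies at -2.36 and -2.45 in the comparisons with GB, and those of the nuclear lists lie between -0.10 and 0.20.

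15 of the 78 genes overlap another protein-coding gene in RefSeq, among them MRPL2, MRPL14, MRPL30, MRPL40, MRPL49, MRPL51, MRPL55, MRPL57, MRPS6, MRPS7, MRPS18C, MRPS27 and MRPS35. Whether strand was used in the counting is not given in the sources used here, so that reads of the overlapping part may have been given to either gene. Without these 15, 17 of 63 genes (27%) were called against CON and 16 (25.4%) against GA, where 33.5% and 29% of all tested genes were called.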

How the data were processed

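RNA from 9 BEND cultures was sequenced as poly(A)-selected, directional libraries. The submitters' processing notes name fastp 0.21.0, Bowtie2 2.33, HISAT2 2.2.1, RSEM 1.3.3 and DESeq2 1.34.0 with the bovine build ARS-UCD1.2. By the study's methods, reads matching rRNA were removed before alignment and RSEM counts per gene were turned into FPKM. The deposited table holds an FPKM value that the authors computed for every gene in every library, to 2 decimals. Total counts per library are not in the table, so that counting intervals were not computed, and the authors' count-based test could not be repeated. No column was left without a sample, and the labels give no batch.

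log2(FPKM + 0.5) was fitted with limma 3.58.1 in R 4.3.3, with a mean for each group, a variance trend and no covariate. Of 17162 genes, 4584 with a mean FPKM under 0.5 were left out. The script was tested on simulated data. Figures were drawn with matplotlib 3.10.9 in Python 3.11.15. Symbols and neighbours were read from RefSeq (assembly ARS-UCD2.0, another build than that of the values, so that no coordinates are given), where all 78 symbols were found. Of the translation factors, MTRFR was matched by its older symbol C17H12orf65. EPCAM, PTPRC, CD3E and IFIT1 of the marker and interferon lists were not analysed here. Subunits and descent were assigned from general knowledge of the ribosome.

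The genes and lists were chosen with earlier results of these data known. Named were genes called with |log2FC| above 1, the 5 highest and 5 lowest log2FC in each comparison, the 5 highest and 5 lowest levels, 8 genes with roles of their own (MRPS18A, MRPS18B, MRPS18C, MRPL12, MRPL44, MRPL58, MRPS7 and MRPS12), the mtDNA-encoded genes and the extremes of the lists. Other genes named were chosen after their values were seen. Lists are described by counts and medians beside those of all tested genes. Alternatives were pseudocounts of 1 and 0.1, other filters, 4 other scalings, no variance trend, only the groups compared, a replicate block, read GC content per library, from the study's sequencing summary, as a covariate, each library left out, and, added after seeing the data, leaving out overlapping genes and, for non-overlap, each library. The values of a gene among those called beside the mitochondrial ribosomal protein genes are not reported here.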

Additional observations from a re-analysis of the deposited data

How the results depend on the processing

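The SD of the median level of the 78 genes between libraries of a group was 0.0692 on the log2 scale, and the median log2FC moved by more than this in 5 cases. With median-of-ratios scaling it was -0.018 in GB vs. GA (all genes -0.0034). With the GC covariate it was -0.143 in GB vs. CON (all genes -0.085) and -0.047 in GA vs. CON (all genes -0.012), and with the GC covariate and the replicate block -0.158 and -0.070 (all genes -0.063 and 0.0067). Against 20 genes called in GB vs. CON, 12 were called without the variance trend (15.4%, against 32% of all genes), 12 in the fit of only the 2 groups (against 28.6%), 11 with the GC covariate and 2 with the GC covariate and the replicate block. In the last 2 fits 1 gene, MRPS10, also passed |log2FC| above 1. In GA vs. CON, the fit of only the 2 groups called 1 gene, MRPL36, by either rule (1.28%, against 0.167% of all genes at the adjusted p). Over all genes, 1472 of GB vs. CON were called with the GC covariate and 514 with the GC covariate and the replicate block, against 4212. The GC covariate reversed the log2FC in GB vs. CON of MRPL42 (-0.084), MRPS35 (-0.108), MRPL49 (-0.0059) and MRPS12 (-0.024), and in GA vs. CON of MRPS21 (0.085), MRPL51 (-0.237), MRPL49 (-0.102) and MRPS35 (-0.111). With the block as well, those reversed were MRPL42 (-0.098), MRPS35 (-0.240) and MRPL49 (-0.0036) in GB vs. CON and MRPL51 (-0.346), MRPL49 (-0.0997) and MRPS35 (-0.235) in GA vs. CON. The cause was not tested.

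With single libraries left out, 11 to 19 genes were called in GB vs. CON (11 without CON1 and 11 without GB2; 14.1% to 24.4%, against 26.4% to 32.3% of all genes), 12 to 25 in GB vs. GA (15.4% to 32.1%, against 21.7% to 32.6%) and 0 to 1 in GA vs. CON (1 without GB3, where 0.588% of all genes were called: MRPL36, which then also passed |log2FC| above 1, for a range of 0 to 1), and the medians ran from -0.042 to 0.041, -0.092 to -0.071 and 0.049 to 0.113. The rule with |log2FC| above 1 called 0 genes in both comparisons with GB in each of these fits. Libraries with the same replicate number did not deviate together (correlations of -0.031 to 0.077), so that the numbers do not pair them. With the replicate block, 18 genes were called for GB against CON, 18 for GB against GA and 0 for GA against CON (23.1%, 23.1% and 0%, against 32.3%, 27.3% and 0.421% of all genes). The number of reads behind each FPKM value is not in the table, which weighs most on genes near the filter such as MALSU1.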

Other observations

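The genes beside the mitochondrial ribosomal protein genes were read from the RefSeq order. Of 127 tested neighbours, 5 (3.94%) had |log2FC| above 1 and an adjusted p under 0.05 in GB vs. CON, and as many in GB vs. GA, near the 4.01% and 3.64% of all tested genes, and 0 in GA vs. CON. The following were chosen after their values were seen. PSMA2, a proteasome subunit next to MRPL32, had 364, 322 and 340.5 FPKM in CON, 361, 371 and 385 in GA and 848, 880.5 and 896 in GB, with GB far above the other 6 libraries (GB vs. CON log2FC 1.35, SE 0.05, adjusted p = 5.33e-08). TAPBPL, a chaperone of MHC class I next to MRPL51, had 4.79, 5.27 and 5.72 FPKM in CON, 6.48, 6.05 and 8.47 in GA and 24.1, 24.8 and 25.8 in GB (log2FC 2.14, SE 0.12, adjusted p = 1.1e-06). EVA1A next to MRPL19 and MITD1, which overlaps MRPL30, were also higher in GB vs. CON, with log2FC 1.07 (limma, adjusted p = 0.00601) and 1.16 (adjusted p = 0.00386). In GB vs. GA, REP15, which overlaps MRPS35, was lower (log2FC -1.02, adjusted p = 0.00746). NDUFS6, a complex I subunit next to MRPL36, had 389.6, 362 and 403 FPKM in CON, 448, 442 and 495 in GA and 380.3, 372 and 347 in GB, so that its GA libraries lay above CON where those of MRPL36 lay below.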
